A study of Mus musculus with 9 samples.

Results

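The cytosolic ribosome is built from ribosomal RNA and a set of ribosomal proteins, each encoded by its own gene in the mouse. The genes described here were chosen by name alone: symbols of the form Rpl or Rps followed by a number and at most the letter a, l or x, together with Rpsa and Rplp0 to Rplp2, with pseudogene names left out. The rule found 61 of 24011 named genes: 31 of the large subunit, 21 of the small subunit, 2 of the P-stalk and 7 whose symbols end in l, which mark paralogs. RefSeq lists 2 of these 7, Rpl6l and Rps4l, as pseudogenes. Rplp2 and Rps6 were not analysed here, and ribosome genes whose symbols the rule does not cover, such as Fau and Rps3a1, were kept in a list of their own.

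RNA came from mouse primary myoblasts, the cultured progeny of skeletal muscle satellite cells. All cells were grown in Ham's F10 with 20% fetal bovine serum and basic FGF and then moved to medium with 2% horse serum, a change under which myoblasts slow their division and begin to differentiate. The groups were cells given 100 ng/ml of BMP4 protein, cells given 500 ng/ml of GREM1 protein and mock-treated controls, and RNA was taken after 24 h. Each group had 3 Affymetrix arrays, and the labels give neither the strain, age or number of the mice nor whether each replicate was its own culture. The p-values therefore cover only sample-to-sample spread, which may be technical. BMP4 is a secreted ligand that signals through SMAD factors, and GREM1 is its secreted antagonist, which captures the ligand outside the cell.

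Making ribosomes is among the largest costs of a growing cell. Growth signals act on it through mTORC1 and Myc, which raise ribosomal RNA synthesis and the assembly factors of the nucleolus. Ribosomal protein mRNAs begin with a tract of pyrimidines, called a TOP, through which mTORC1 and Larp1 control their translation, so that protein output can change with little change in mRNA level. When muscle cells differentiate they stop dividing, and ribosome production usually slows. The arrays measured mRNA levels only.

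The cells carried the markers of their label: all 8 myogenic markers lay above the filter on dim genes, with summed linear signals of 9068 to 10020 in BMP4 arrays, 10128 to 10951 in GREM1 arrays and 6835 to 9378 in control arrays. Smad6, a feedback inhibitor induced by SMAD factors, was 1.03 ± 0.18 (log2 difference ± SE, limma adjusted p = 0.0796) after BMP4 and fell after GREM1 (-1.20 ± 0.18, adjusted p = 0.00784), each against control. Markers of other cell types were mostly dim: 4 of 8 leukocyte, 4 of 8 endothelial, 3 of 7 fibroblast and 3 of 7 adipocyte markers lay above the filter, and Ptprc, Adgre1, Pdgfra, Dcn, Kdr, Emcn and Adipoq did not. The leukocyte list summed to 526 to 646 in GREM1 arrays, against 351 to 381 in control arrays, and its member Laptm5 rose by 1.14 (adjusted p = 0.00120). Other leukocyte markers did not pass, with Cd68 at -0.16 and Itgam at 0.036, and the median of the 4 tested was 0.019. The adipocyte list summed to 131 to 140 in GREM1 arrays, against 183 to 220 in control arrays, and Pparg fell by 1.22 on the log2 scale (adjusted p = 0.00161). The other 2 tested adipocyte markers did not pass, Plin1 at -0.037 and Retn at 0.0092. The fibroblast list summed to 242 to 297 in BMP4 arrays, 207 to 240 in GREM1 arrays and 242 to 331 in control arrays, and the endothelial list to 112 to 121, 119 to 130 and 118 to 123 in the same order. In BMP4 arrays the leukocyte list summed to 316 to 327 and the adipocyte list to 202 to 231. The part of other cell types in the ribosomal protein values was not tested. In such bulk samples fewer cells of a type and less RNA per cell cannot be told apart.

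The promoters of 6 ribosomal protein genes on which the results below turn are printed as 80 bases of GRCm38.p6 from RefSeq, running from 50 bases before the annotated start site to 30 after it, 5′ to 3′ on the gene's strand. Capitals mark matches, on either strand, to the core motif of ETS factors (CCGGAAG) or to the letters of the TATA box (TATAAA). Every marked match lies after the annotated start site, within the last 30 bases, so TATAAA here is a match of letters and not a placed TATA box. The window of Rps16 is chr7:28350639-28350718 and that of Rpl36a is chrX:134585604-134585683, both on the plus strand. Those of Rpl6 (chr5:121204451-121204530), Rpsa (chr9:120127716-120127795) and Rplp0 (chr5:115559417-115559496) are also on the plus strand. That of Rpl9, the member with the widest spread, is chr5:65391402-65391481 on the minus strand.
Rps16: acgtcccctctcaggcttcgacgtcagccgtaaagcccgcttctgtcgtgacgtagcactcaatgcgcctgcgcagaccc
Rpl36a: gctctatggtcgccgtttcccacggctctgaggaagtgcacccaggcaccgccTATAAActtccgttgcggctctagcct
Rpl6: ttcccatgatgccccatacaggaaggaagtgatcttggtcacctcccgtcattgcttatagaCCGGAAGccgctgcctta
Rpsa: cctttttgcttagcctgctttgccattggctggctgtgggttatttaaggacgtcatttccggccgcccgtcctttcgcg
Rplp0: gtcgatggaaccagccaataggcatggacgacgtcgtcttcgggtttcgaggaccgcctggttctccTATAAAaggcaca
Rpl9: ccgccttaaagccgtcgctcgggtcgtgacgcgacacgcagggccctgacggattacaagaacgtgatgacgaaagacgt

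A promoter of 300 bases was listed for 47 of the 61 genes, and the first listed start of each gene was read. The ETS core stood in 16 of the 47 (34%), against 9.12% of the promoters of all 27025 genes. CTTTCC, a short pyrimidine tract, stood in 22 (46.8%, against 26.3% of all), and TATAAA in 5 (10.6%, against 14.2%). CTTTCC was searched on both strands and anywhere in the 300 bases, so its count does not show a TOP, which begins the mRNA. No motif of the 3 contains another, and a match is a description of the sequence. Over the 300 bases Rpl6 and Rpsa held both the ETS core and CTTTCC, Rpl36a and Rplp0 held CTTTCC and TATAAA, and Rps16 and Rpl9 held none of the 3.

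Values are log2 expression from robust multi-array averaging, so a difference of 1 is a doubling of signal. Probe set signals do not order genes by abundance: they ran from a mean of 2.55 for Rpl32l to 12.58 for Rplp1. Rpl10 and Rpl28, which encode core ribosomal proteins, averaged only 2.82 and 3.12. Each gene is therefore compared only with itself across arrays. Control replicate 1 was the highest or lowest of the 9 arrays for some of these genes, and its effect is given beside the values it moved most. Ribosomal protein genes have many near-identical pseudogene copies, and how far probes read those copies was not tested. Dim genes were filtered out: testing required signal over the 30th percentile of an array's named probe sets (3.89 to 4.02) on 3 or more arrays. That kept 56 of the 61 genes and left out Rpl10, Rpl10l, Rpl28, Rpl32l and Rps28, whose means lay between 2.55 and 3.72. With no filter these 5 differed from control by -0.32 to 0.023 after BMP4 and by -0.51 to 0.090 after GREM1, the lowest adjusted p being 0.149, for Rpl10 after GREM1.

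GREM1 arrays were compared with control arrays for the effect of the BMP antagonist. Rps16, a small subunit protein, was the member that fell. Its level was 4.32, 4.76 and 4.56 in GREM1 arrays, against 5.45, 5.65 and 5.80 in control arrays. The GREM1 values are dim, below the array medians of 5.00 to 5.12 and not far above the filter of 3.89 to 4.02. Every GREM1 array lay below every control and every BMP4 array. The means were 4.55 ± 0.22 with GREM1 and 5.63 ± 0.17 in controls (SD, n = 3 each), a difference of -1.09 ± 0.14 (SE, 2.13-fold lower, limma adjusted p = 0.00402). Over the 18 alternative settings and left-out arrays the difference stayed between -1.19 and -0.97 and the adjusted p between 6.38e-04 and 0.0200.

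Of the 56 tested genes, 1 fell and 0 rose in limma after GREM1, where 4.28% of all 17142 tested genes passed (2.21% lower and 2.07% higher). At an unadjusted p under 0.05, 9 were lower and 0 higher (10.8% and 9.19% of all genes). With the replicate number as a block, 6 fell and 1 rose, where 11.6% of all genes passed (6% lower and 5.58% higher). Passing in 7 of 56 (12.5%) is near that background. The arrays of this comparison bear out such a pairing for numbers 1 and 3 but not clearly for number 2, which limits the block calls. The differences leaned one way more than the calls do: 45 of 56 were below 0 and 11 above, against 51.4% and 48.6% of all genes, with a median of -0.17 against -0.0057 over all genes tested. GREM1 and control arrays did not overlap for 13 genes lower with GREM1 (23.2%, against 12.7% of all genes) and for 0 genes higher (11.3% of all genes).

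**Figure D1:**
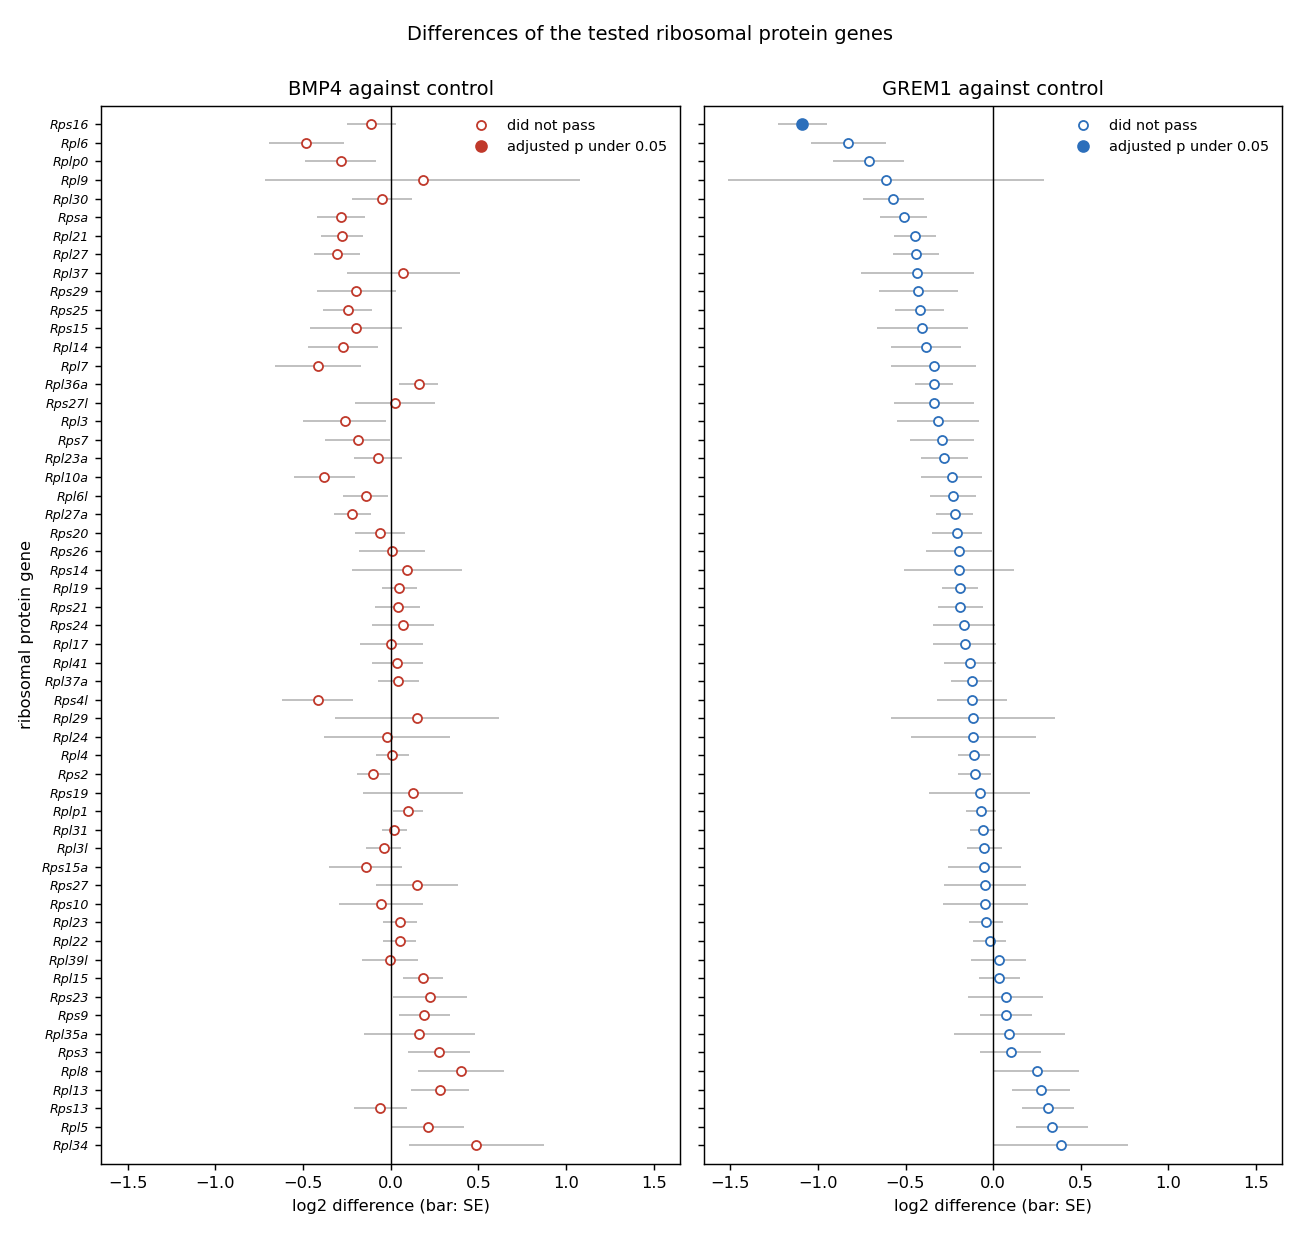
Log2 differences of the 56 tested ribosomal protein genes after BMP4 (left panel) and after GREM1 (right panel), each against the same 3 control arrays, with SE as bars and genes ordered by the GREM1 value. Rps16 at -1.09 is the filled point that passed, 45 of the GREM1 values lie left of 0 and the BMP4 values scatter on both sides.

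The genes that fell under the block were Rps16, Rpl6, Rplp0, Rpsa, Rpl30 and Rpl21, and the 1 that rose was Rpl5. Rpl6, a large subunit protein, had 6.28, 5.78 and 5.71 with GREM1, against 6.93, 6.80 and 6.53 in controls. The groups did not overlap, and the difference was -0.83 ± 0.21 (adjusted p = 0.0624, or 0.0470 with the block). Control replicate 1 was the highest array for Rpl6, and without it the difference was -0.74. BMP4 arrays, at 5.82, 6.54 and 6.46, overlapped both groups for Rpl6.

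Rplp0 is the scaffold of the P-stalk, the flexible arm that calls elongation factors to the ribosome, and its mRNA is often used as a reference in PCR. It measured 7.0, 6.56 and 6.83 with GREM1, against 8.0, 7.13 and 7.39 in controls. The groups did not overlap, and control replicate 1 stood above the other controls. The difference was -0.71 ± 0.20 (adjusted p = 0.0854, or 0.0295 with the block). Without that array it was -0.46. Rplp1, the other stalk protein measured, was 12.38, 12.57 and 12.56 with GREM1, against 12.50, 12.55 and 12.66 in controls, values that overlap.

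Rpsa, a small subunit protein also known as a laminin-binding protein, had 9.10, 9.06 and 8.89 with GREM1, against 9.87, 9.35 and 9.36 in controls. The groups did not overlap, control replicate 1 again being the highest array, and the difference was -0.51 ± 0.14 (adjusted p = 0.0685, or 0.0254 with the block). Without that array it was -0.34. Rpl30, a large subunit protein, measured 5.32, 4.98 and 5.42 with GREM1, against 5.98, 5.55 and 5.90 in controls (-0.57 ± 0.17, adjusted p = 0.0993, or 0.0235 with the block). Rpl21 measured 5.82, 6.11 and 6.31 with GREM1, against 6.61, 6.43 and 6.53 in controls (-0.45 ± 0.12, adjusted p = 0.0696, or 0.0359 with the block). GREM1 arrays lay below all controls for both Rpl30 and Rpl21. Control replicate 1 was the highest array for Rpl21, and without it that difference was -0.40.

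Rpl5, which with 5S ribosomal RNA forms a particle that can bind the p53 inhibitor Mdm2, had 7.38, 7.33 and 7.76 with GREM1, against 6.93, 6.93 and 7.61 in controls. The groups overlapped, but within each replicate number GREM1 was the higher. The difference was 0.34 ± 0.21 (adjusted p = 0.405, or 0.0426 with the block).

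**Figure D2:**
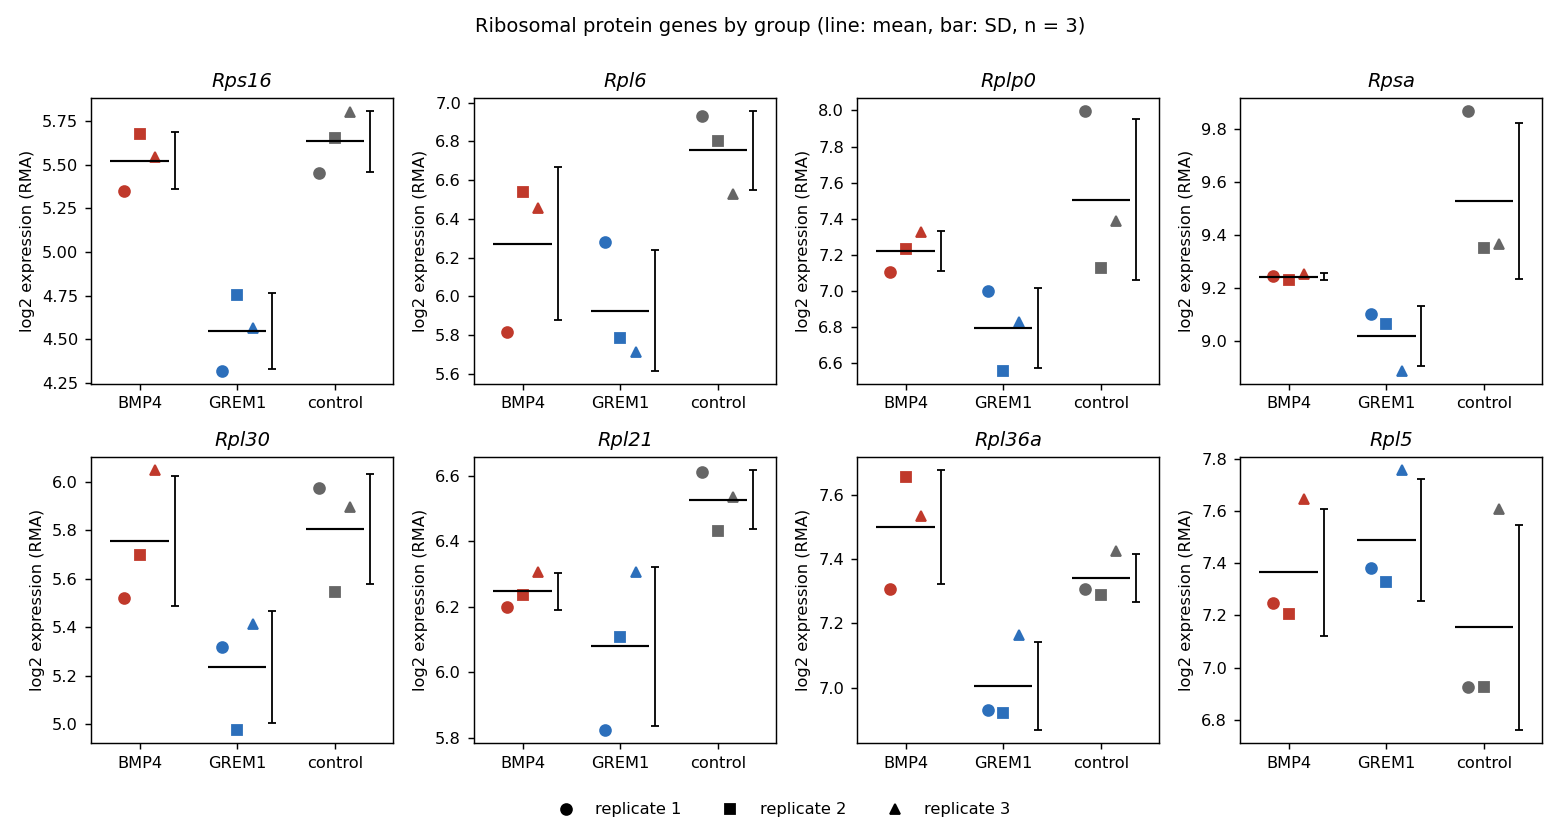
Log2 expression of 8 ribosomal protein genes on each array, by group, with the group mean as a line, the SD as a bar and the replicate number as the symbol. Rps16 separates GREM1 arrays, all at 4.76 or below, from the BMP4 and control arrays, all at 5.35 or above, while the other genes show smaller gaps or overlaps.

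Among the members with the largest positive values after GREM1, Rpl34 was 0.39 ± 0.38, Rps13 0.31 ± 0.15, Rpl13 0.27 ± 0.17 and Rpl8 0.25 ± 0.24, and none of these 4 passed. Control replicate 1 lay below all other arrays for 3 of these, with 6.55 for Rpl34, 6.31 for Rps13 and 9.92 for Rpl8. Without it, the difference was -0.095 for Rpl34, -0.076 for Rpl8 and 0.18 for Rps13. The paralogs gave small values: Rps27l, which p53 induces, was -0.34 ± 0.23 (adjusted p = 0.455), Rpl6l -0.23, Rps4l -0.12, Rpl3l -0.051 and Rpl39l 0.031. Without control replicate 1 Rps4l was 0.054 and Rpl39l 0.21. Rpl3l, a paralog of Rpl3 known from heart and skeletal muscle, stayed near the filter at 3.73 to 4.04 over all arrays.

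Both subunits leaned alike after GREM1. The median difference was -0.16 over 29 large subunit genes, 23 of them below 0, and -0.18 over 20 small subunit genes, 16 of them below 0. Within replicate numbers 1, 2 and 3 the median GREM1 minus control difference over the 56 genes was -0.32, -0.072 and -0.12, with 41, 33 and 44 genes below 0. Leaving out any array gave a median between -0.23 and -0.12.

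BMP4 arrays were compared with control arrays for the effect of the ligand. In limma 0 of the 56 ribosomal protein genes passed, where 0.117% of all genes did (0.0933% higher and 0.0233% lower). With the block 0 passed, where 0.379% of all genes did (0.303% higher and 0.0758% lower). Before adjustment, at p under 0.05, 3 were lower and 0 higher, against 3.99% and 4.03% of all genes. Differences lay on both sides of 0, with 29 above and 27 below (48.2% and 51.8% of all genes), and the median was 0.0064 against -0.0060 over all genes. BMP4 and control arrays did not overlap for Rpl27, Rpsa, Rpl21 and Rpl3, all lower with BMP4, which is 7.14% of the members against 5.9% of all genes, and for 0 genes higher (5.31% of all genes).

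The lowest values after BMP4 were those of Rpl6 (-0.48 ± 0.21, adjusted p = 0.619), Rps4l (-0.42), Rpl7 (-0.41), Rpl10a (-0.38) and Rpl27 (-0.31). Control replicate 1 was the highest of the 9 arrays for Rpl6, Rps4l, Rpl7 and Rpl27. Without it their differences were -0.39, -0.24, -0.19 and -0.23 in that order, while Rpl10a was -0.57. Rpsa had 9.25, 9.23 and 9.25 with BMP4, against 9.87, 9.35 and 9.36 in controls, and its difference was -0.29 ± 0.14 (adjusted p = 0.645). It was -0.115 without control replicate 1. The highest values were those of Rpl34 (0.49), Rpl8 (0.40), Rpl13 (0.28), Rps3 (0.28) and Rps23 (0.22), none with an adjusted p under 0.705. Most of these rested on control replicate 1: without it Rpl34 was 0.0056, Rpl8 0.077, Rps3 0.053 and Rps23 0.089, while Rpl13 was 0.25. Within replicate numbers 1, 2 and 3 the median BMP4 minus control difference was -0.20, 0.13 and 0.037, so its sign differed between numbers. Rps16 was 5.35, 5.68 and 5.54 with BMP4, against 5.45, 5.65 and 5.80 in controls, values that overlap (-0.11 ± 0.14, adjusted p = 0.859, and -0.20 without control replicate 1).

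The comparison of BMP4 with GREM1 sets ligand against antagonist and shares its arrays with both comparisons above. Of the 56 genes, 2 were higher with BMP4 and 0 lower, where 6.45% of all genes passed (3.62% higher and 2.83% lower). Before adjustment, at p under 0.05, 4 were higher and 1 lower, against 10.1% and 9.31% of all genes. Rps16 was 5.35, 5.68 and 5.54 with BMP4, against 4.32, 4.76 and 4.56 with GREM1, and its difference was 0.98 ± 0.14 (adjusted p = 0.00307). Rpl36a, a large subunit protein encoded on the X chromosome, was 7.31, 7.66 and 7.54 with BMP4, against 6.93, 6.92 and 7.16 with GREM1. These groups did not overlap, and the difference was 0.50 ± 0.11 (1.41-fold, adjusted p = 0.0290). Rpl36a lost the call without BMP4 replicate 2 or 3 or GREM1 replicate 1 or 2 (adjusted p = 0.0950 to 0.114), and in a fit of the compared groups (adjusted p = 0.0600). Rpl30 was 0.52 ± 0.17 (adjusted p = 0.120).

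Of the 56 differences 48 were above 0 and 8 below, against 50% of all genes each way, with a median of 0.15, or -2.33e-05 over all genes. Within replicate numbers 1, 2 and 3, which were not taken to pair these groups, the medians were 0.074, 0.23 and 0.16. By number, 35, 44 and 43 genes were higher with BMP4. BMP4 and GREM1 arrays did not overlap for 7 genes higher with BMP4 (12.5%, against 12.3% of all genes) and 1 lower, Rps13 (1.79%, against 12.2%). Rps13, a small subunit protein, was -0.37 ± 0.15 (adjusted p = 0.205). The median was 0.074 without GREM1 replicate 1 and 0.077 without BMP4 replicate 3.

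The spread between arrays of a group was also described for these genes, with no test. The median SD within groups was 0.25 over the 56 genes and 0.14 over all 17142. Rpl9, a large subunit protein, ranked 1 of the 17142 with an SD of 1.38. It measured 3.38, 5.96 and 6.33 with BMP4, 3.79, 3.43 and 6.06 with GREM1, and 3.83, 5.54 and 5.74 in controls. Values sat either at 3.83 and below or at 5.54 and above, with no array between, and replicate 1 was low in every group, joined by GREM1 replicate 2. All the low values lay under the filter on dim genes (3.89 to 4.02), so the size of the gap is uncertain. No treatment difference of Rpl9 passed (0.18 ± 0.90 after BMP4 and -0.61 ± 0.90 after GREM1), and without control replicate 1 they were -0.42 and -1.22.

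Rpl29 ranked 29, Rpl34 96, Rpl24 128, Rpl37 208 and Rpl35a 221 of 17142 for the same spread. Rpl29 measured 5.74, 6.89 and 7.40 with BMP4, 6.04, 6.13 and 7.07 with GREM1, and 5.83, 6.55 and 7.20 in controls, so replicate 1 was lowest and replicate 3 highest in every group. Rpl24 measured 5.64, 6.36 and 6.4 with BMP4, 6.06, 5.32 and 6.74 with GREM1, and 5.67, 6.28 and 6.50 in controls, with replicate 3 highest in every group. Replicate 3 was above replicate 1 in every group for 24 of the 56 genes (42.9%), as for 22.4% of all genes. The reverse held for 5 genes (8.93%, against 20.6% of all), Rpl7, Rps15a, Rps10, Rpl3l and Rps2.

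**Figure D3:**
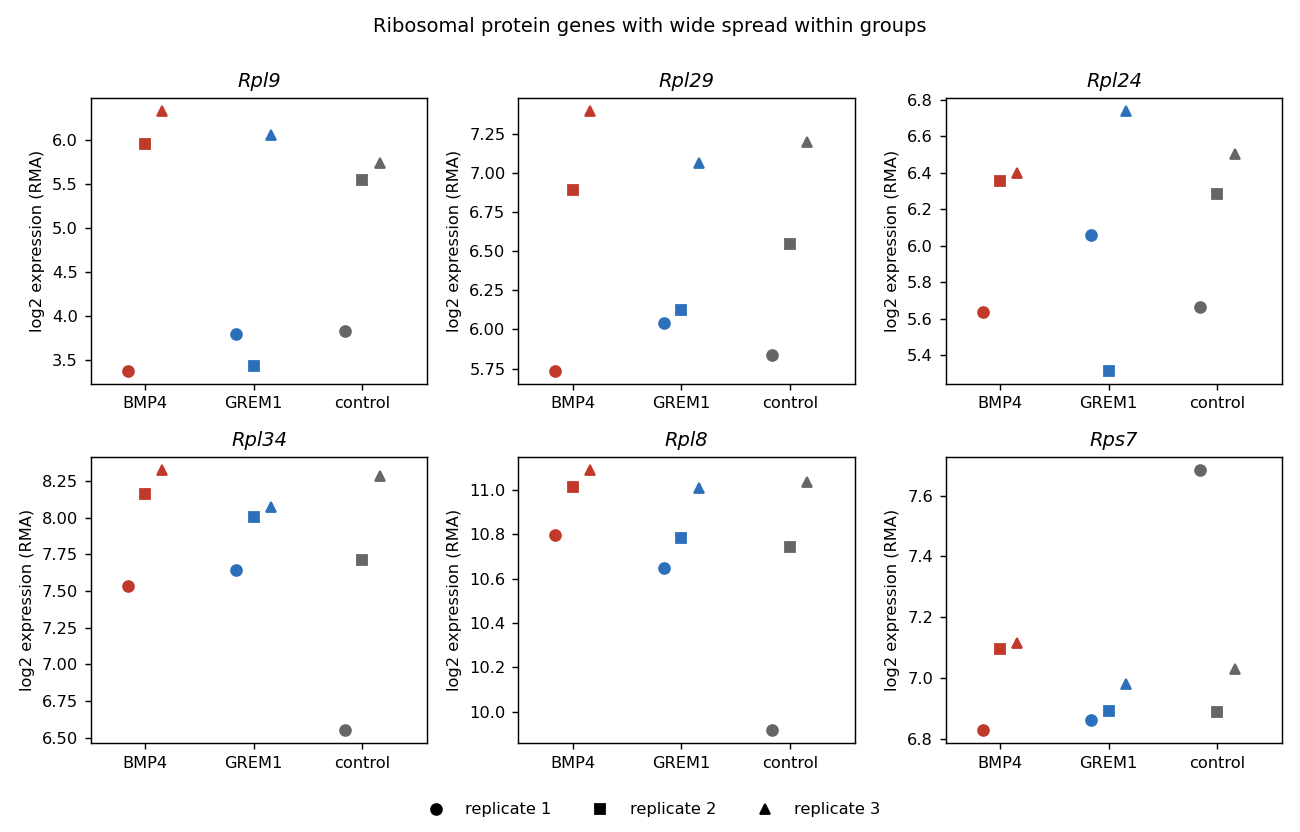
Log2 expression of 6 ribosomal protein genes on each array by group, with symbols for the replicate number. Rpl9 falls into values up to 3.83 and values from 5.54, Rpl29 and Rpl24 have replicate 3 on top in each group, and control replicate 1 stands alone for Rpl34, Rpl8 and Rps7.

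Control replicate 1 stood outside the range of the other 8 arrays for 21 of the 56 genes (37.5%), near the 35.8% of all genes. It was the highest array for 15 (26.8%, against 18.4% of all genes), among them Rps7 at 7.68 against at most 7.11, Rps25 at 9.63 against at most 9.18 and Rpl27a at 10.74 against at most 10.45. It was the lowest for 6 (10.7%, against 17.4% of all genes), among them Rps3 at 9.78 against at least 10.22 and Rps9 at 11.01 against at least 11.30. Without this array the median GREM1 difference was -0.13 and Rps16 was the 1 gene that passed.

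When each gene was set against its own mean of 9 arrays, the median member lay at -0.15, 0.10 and 0.19 on BMP4 arrays 1, 2 and 3, at -0.17, -0.092 and 0.023 on GREM1 arrays and at 0.054, -0.015 and 0.16 on control arrays. All arrays had a median within 0.0075 of 0 over all genes. GREM1 replicate 3 lay above BMP4 replicate 1 and control replicate 2, so on this measure the groups overlapped.

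**Figure D4:**
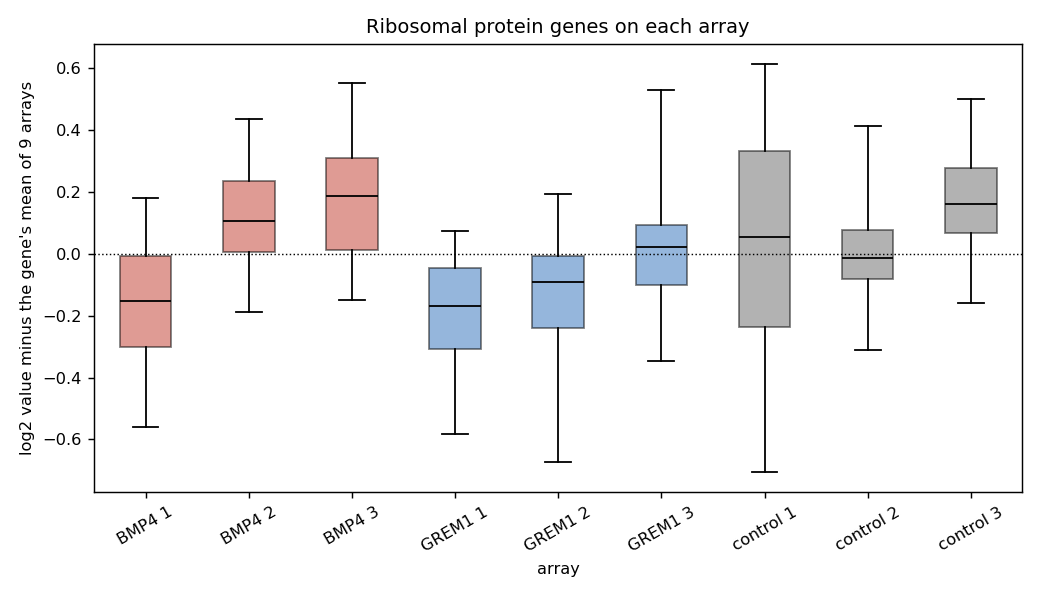
Log2 values of the 56 tested ribosomal protein genes minus each gene's mean of 9 arrays, 1 box per array (line: median, box: quartiles, whiskers: 5th to 95th percentile). BMP4 replicate 1 and GREM1 replicates 1 and 2 have medians from -0.17 to -0.092, GREM1 replicate 3 is at 0.023 and control replicate 1 has the widest box.

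The other genes of ribosome production were counted from lists. Of 48 ribosome biogenesis genes, Rcl1, a factor of small subunit RNA processing, fell after GREM1 (-0.54 ± 0.12, adjusted p = 0.0344). The others did not pass, where 2.21% of all genes fell and 2.07% rose. The list had a median of -0.12 with 34 genes below 0, as were 51.4% of all genes. Before adjustment 8 of the 48 were lower and 0 higher at p under 0.05, where 10.8% of all genes were lower and 9.19% higher. The nucleolar GTPase Gnl3 was -0.31 (adjusted p = 0.0867, and 0.0471 under the block), while Mrto4, which prepares the P-stalk site, was -0.29 (adjusted p = 0.102). Among 11 genes of RNA polymerase I, which transcribes ribosomal RNA, 0 passed in limma, 1 had an unadjusted p under 0.05 (lower) and the median was -0.10. Taf1d had the lowest p, at -0.28 (adjusted p = 0.136).

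Mitochondrial ribosomal protein genes, which serve the separate ribosome of mitochondria, had a median of -0.085 after GREM1 over 76 genes, 47 of them below 0. In limma 0 passed, with 8 of 76 lower and 0 higher at an unadjusted p under 0.05, where 10.8% of all genes were lower and 9.19% higher. Mrpl40 was -0.35 (adjusted p = 0.0798, or 0.0430 with the block, under which 2 genes fell). The 15 other TOP mRNA genes had a median of -0.061 and 0 passed, with 2 lower at an unadjusted p under 0.05. Gas5, a TOP RNA that hosts small nucleolar RNAs, was -0.37 (adjusted p = 0.0910, or 0.0152 with the block, under which 2 genes fell). Of 26 translation factor genes 0 passed and 1 was lower at an unadjusted p under 0.05, the release factor Gspt1 (-0.36, adjusted p = 0.106), and the median was 0.030. The 4 tested ribosome genes outside the name rule had a median of -0.18 and 0 passed, with 1 lower at an unadjusted p under 0.05. Rpl7l1, a paralog of Rpl7 in ribosome assembly, was that gene, at -0.46 (adjusted p = 0.105).

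Among 17 growth control genes 2 rose and 1 fell after GREM1, or 4 and 1 with the block. Over all genes 2.07% rose and 2.21% fell, or 5.58% and 6% with the block. Rptor, the subunit that brings substrates to mTORC1, rose by 0.79 ± 0.09 (adjusted p = 0.00223), the S6 kinase gene Rps6kb2 rose by 0.38 (adjusted p = 0.0467) and Myc fell by 0.62 (adjusted p = 0.0117). Of 9 genes of the p53 response to ribosomal stress 0 passed and 1 was higher at an unadjusted p under 0.05, Cdkn1a (0.62, adjusted p = 0.188). For scale, 7 of 19 proliferation genes fell (14 with the block), with a median of -0.61 and all 19 below 0, and 6 of 20 muscle differentiation genes rose, with a median of 0.38 and all 20 above 0. After BMP4, 0 genes of these 10 lists passed in limma, and their medians lay between 0.018 and 0.095. In either direction 2 or fewer genes a list had an unadjusted p under 0.05, apart from mitochondrial ribosomal proteins with 3 lower. Over all genes 4.03% were higher and 3.99% lower by that rule.

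**Figure D5:**
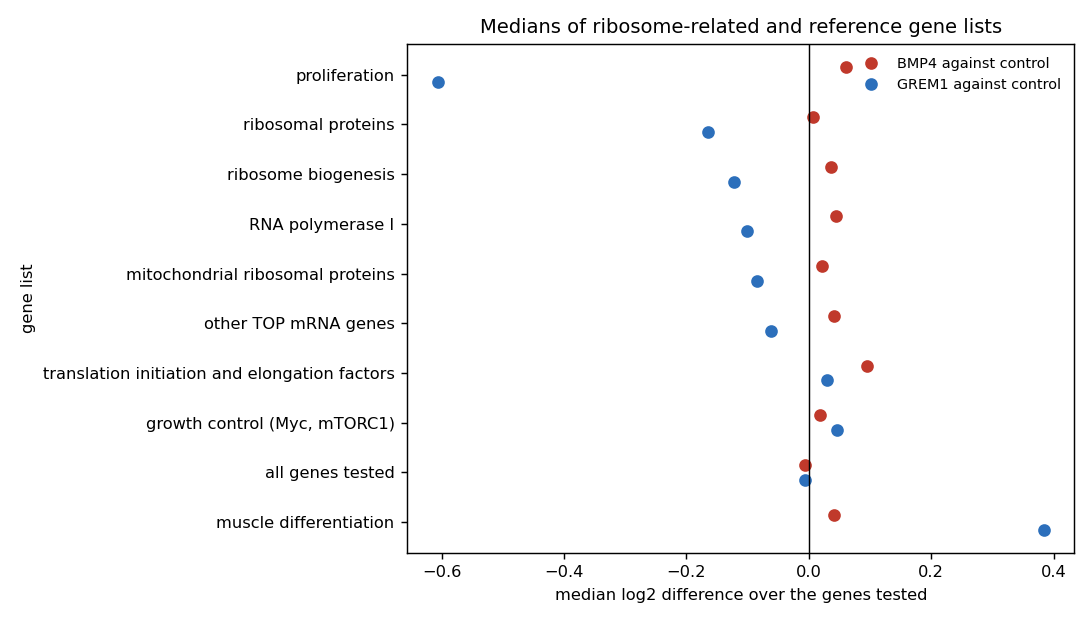
Median log2 difference over the tested genes of each list, after BMP4 and after GREM1, each against the same control arrays. After GREM1 the ribosomal protein median of -0.17 lies between the proliferation list at -0.61 and all genes tested at -0.0057, and after BMP4 all list medians lie between -0.0060 and 0.095.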

How the data were processed

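Expression was measured in 9 samples with 1 Affymetrix array each. The deposited values are log2 expression on the RMA scale. Per the submitters' processing notes the authors used Affymetrix Expression Console, and the values were taken as given. The array's chip definition is not given in the sources used here. Of 24973 probe sets 24015 had 1 gene symbol in GEO's platform annotation, 958 had none and 0 had several, and 23922 were found in the RefSeq table. Where a gene had several probe sets the brightest was taken, which applied to 0 of the 61 ribosomal protein genes.

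Differences were tested with limma 3.58.1 in R 4.3.3 (lmFit and eBayes, two-sided) on all 9 arrays, with 6 residual and 3.47 prior degrees of freedom and Benjamini-Hochberg adjustment over 17142 genes at 0.05. The code was tested on simulated data. Precision is limited by the 3 arrays a group: the median SE of a difference was 0.17 over the ribosomal protein genes and 0.11 over all genes. "Rose" and "fell" are used of genes past this threshold, or past it with the block where that is stated.

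As a check of pairing, deviations from group means were correlated between like-numbered arrays over all tested genes. They gave r = 0.34, 0.17 and 0.58 between BMP4 and control and 0.24, 0.12 and 0.47 between GREM1 and control, so the numbers were taken to pair these arrays. Support was weak for number 2: GREM1 replicate 2 gave 0.16 with control replicate 1, above its 0.12 with control replicate 2. Over the 56 ribosomal protein genes these were 0.33 and -0.18. Between BMP4 and GREM1 they gave 0.22, 0.088 and 0.42, and the numbers were not taken to pair them. For number 2 this 0.088 is near the 0.12 between GREM1 and control, where pairing was taken. Pairing both groups with control by number also pairs BMP4 with GREM1, so these choices conflict. The block calls of every comparison therefore rest on a pairing that these values do not settle.

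Named members were those past the threshold, the 5 highest and 5 lowest differences of each comparison, the 3 brightest, dimmest and most variable, the paralogs, Rpsa and the stalk genes. Other lists gave up to 3 genes by unadjusted p. Rpl3, Rpl21, Rpl24, Rpl27a, Rpl35a, Rps2, Rps7, Rps9, Rps10, Rps25 and Rps28 were named after their values were seen. The members and lists were chosen with earlier results of these data known. Alternatives were the block, a fit of the compared groups, a variance trend, array weights, repeated quantile normalization, median centring, no filter or one at the 50th percentile, probe set means and leaving out each array.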

Additional observations from a re-analysis of the deposited data

How the results depend on the processing

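Of the ribosomal protein genes, 0 passed after BMP4 under each of the 18 alternatives, and their median difference lay between -0.090 and 0.084. After GREM1 the median lay between -0.23 and -0.12 and between BMP4 and GREM1 between 0.074 and 0.24. After GREM1 the 1 gene became 7 with the replicate block, 3 with array weights and 2 with the filter at the 50th percentile, and 1 to 2 when an array was left out. Calls over all genes also grew under the block, the array weights and the stricter filter, as given below. Between BMP4 and GREM1 the 2 genes were 1 in a fit of only these groups and 1 to 2 without an array. They were 3 with the block, where Rpl30 passed (adjusted p = 0.0299), though the replicate numbers were not taken to pair these groups. Rps16 passed in both comparisons with GREM1 under all alternatives. Over all genes the 20 of BMP4 against control became 65 with the block, 68 with array weights, 31 with the stricter filter, 5 in a fit of the compared groups and 2 to 17 without an array. The 734 of GREM1 against control became 1985 with the block, 1090 with array weights and 929 with the stricter filter. They became 437 in the fit of the compared groups and 245 to 898 without an array. The 1105 of BMP4 against GREM1 became 2192 with the block, 1768 with array weights and 560 to 1155 without an array. The block changed no ribosomal protein call other than those given. The cause of these changes was not tested, except that leaving out arrays or a group leaves fewer samples. Of 1875 recomputed values of the named members, 13 gained a call, 5 lost one and 0 reversed one, while 11 without a call changed sign by their SE or more. A reversal needed a change of sign and a call in either fit. Few values held such a call, so few could reverse. Dim probe sets limit what can be seen of the 5 genes left out.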

Other observations

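The array also held 9 probe sets named as ribosomal protein pseudogenes, which the name rule left out, and 6 of them were bright enough to be tested. In limma 0 passed in any comparison, and 0 had an unadjusted p under 0.05. After GREM1 5 of the 6 were below 0, the lowest being Rps15a-ps5 (-0.33, adjusted p = 0.467), Rps19-ps3 (-0.21, adjusted p = 0.506) and Rpl34-ps2 (-0.18, adjusted p = 0.459). Rpl34-ps2 measured 10.79, 10.74 and 10.90 in GREM1 arrays, against 11.24, 10.79 and 10.94 in control arrays, and control replicate 1 was its highest array. For the parent gene Rpl34 that array was the lowest, at 6.55.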
